A study of Mus with 12 samples.

Results

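Ltf, Lcn2, Muc1, Muc4, Lyz2 and Pigr encode proteins that the uterine lining secretes or displays towards its lumen, and most of them are known as estrogen-responsive in the mouse uterus. They were taken by name from the 2 deposited gene tables, as the rows that carry the gene's symbol together with an Ensembl transcript, and all 6 were found among 87235 rows of the implantation stage and 40787 rows of the labor stage. RNA had been sequenced from the whole uterus of pregnant ICR mice, an outbred strain without any introduced allele or treatment. Each of 4 groups held 3 mice with 1 library each, from E0.5 or E4.5 for the implantation stage and from E15.5 or E18.5 for the labor stage, where E0.5 is 0.5 days after mating. The study assigned the days to these stages by progesterone levels and, for labor, also by earlier work on parturition, and the day effect is the level at E0.5 against E4.5, or at E18.5 against E15.5. Levels are given as FPKM, fragments counted for a gene, scaled by its length and by the size of the library.

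The luminal and glandular epithelium of the mouse uterus responds to the estrogen that surrounds ovulation and mating with a burst of secretion, and progesterone, which rules the uterus at implantation, restrains it. Lactoferrin (Ltf) withholds iron from microbes and lipocalin 2 (Lcn2) captures the siderophores with which bacteria take up iron. The transmembrane mucins Muc1 and Muc4 form a glycoprotein coat on the apical face of the epithelium. Lysozyme (Lyz2 and its close paralog Lyz1) cuts bacterial cell walls and is also a product of macrophages and neutrophils, while the polymeric immunoglobulin receptor (Pigr) carries immunoglobulin A across the epithelium into the secretion.

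The implantation libraries held 58020989 to 70906881 counts, and the depth of the labor libraries is unknown because their table gives FPKM only. E4.5 replicate 3 stood apart from the other libraries. It correlated with the other E4.5 libraries at a Spearman coefficient of 0.711 and 0.720 across genes, where other pairs of the same day in that stage reached 0.911 to 0.930. Its summed level of 8 ovary markers was 1357 FPKM against 4.29 to 6.44 FPKM in the other 5 libraries of the stage. Its 6 smooth muscle markers summed to 201 FPKM against 779 to 1192 FPKM, and its 8 epithelium markers to 95.2 FPKM, the lowest of the stage. Its 7 oviduct markers summed to 125 FPKM against 4.26 to 33.7 FPKM, and the part of these tissues in its values was not tested. The fold changes of the 6 genes and the counts and medians of the gene lists at the implantation stage are therefore given with and without it. Less far apart, E15.5 replicate 1 correlated at 0.878 and 0.905 with its own day, where the other same-day pairs of the labor stage reached 0.952 to 0.965, and the fold changes of the 6 genes and the list counts of that stage are given without it too. The smooth muscle and epithelium markers that define whole uterus were present in every library.

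Between E0.5 and E4.5, 5 of the 6 genes met the study's criterion for a difference (a log2 fold change of 1 or more in size and an unadjusted p below 0.05), all of them higher at E0.5, where 6.37% of all 59732 tested rows met it in that direction. The adjusted p of edgeR (quasi-likelihood F-test, Benjamini-Hochberg) was under 0.05 for 4 of them, Ltf, Lcn2, Muc1 and Muc4, against 0.763% of all rows. The median log2 fold change was 4.98 over the 6 genes (4.72 without E4.5 replicate 3) and -0.01 over all tested rows (0.05 without it). In whole uterus, fewer cells of a type and less RNA per cell cannot be told apart. The criterion was again met by 5 of 6 without E4.5 replicate 3 (7.82% of all rows), and the adjusted p by 5 of 6, now with Pigr (3% of all rows). When any other library was left out, the edgeR adjusted p of Ltf, Muc1 and Muc4 was above 0.05, up to 0.140, 0.137 and 0.129, while that of Lcn2 was above it only without E0.5 replicate 2 (0.0554).

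Ltf (chromosome 9, 111019271 to 111042767, plus strand) stood at 537, 347 and 470 FPKM in the E0.5 libraries, but only at 2.99, 5.15 and 20.0 FPKM in the E4.5 libraries. The groups were far apart, and the highest E4.5 value came from replicate 3, the library with the ovary markers. Among 21044 protein-coding rows ordered by FPKM, Ltf ranked 4, 13 and 11 at E0.5 and 7166, 4132 and 657 at E4.5. Its means were 451.2 ± 96.0 FPKM and 9.39 ± 9.27 FPKM (SD, n = 3 each), a log2 fold change of 5.63 (standard error, SE, 0.78, edgeR adjusted p = 0.0337). This is a 49.4-fold difference, and without E4.5 replicate 3 the log2 fold change was 6.78.

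Lcn2 (chromosome 2, 32384633 to 32388252, minus strand) was the most uniform of the genes at E0.5, with 321, 308 and 318 FPKM, and had 2.21, 1.22 and 2.23 FPKM at E4.5. The E4.5 libraries, replicate 3 included, lay close together. The difference of 316 ± 6.45 FPKM against 1.88 ± 0.578 FPKM (SD, n = 3 each) was 167-fold, a log2 fold change of 7.38 (SE 0.35, edgeR adjusted p = 0.00505), and 7.49 without E4.5 replicate 3. In counts, Lcn2 fell from between 70659 and 85522 per library to between 309 and 584, so the E4.5 values do not rest on a few reads.

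Both mucins followed the same course. Muc1 (chromosome 3, 89229057 to 89233381, plus strand) had 45.8, 68.0 and 79.8 FPKM at E0.5 but 3.89, 4.45 and 1.24 FPKM at E4.5. The means of 64.5 ± 17.2 and 3.19 ± 1.71 FPKM (SD, n = 3 each) gave a log2 fold change of 4.34 (SE 0.55, edgeR adjusted p = 0.0275). Its groups did not overlap, and its lowest library was E4.5 replicate 3. Muc4 (chromosome 16, 32735886 to 32782391, plus strand) had 17.7, 18.9 and 31.2 FPKM at E0.5 but 0.429, 0.567 and 0.0967 FPKM at E4.5. It was the least abundant of the genes on both days, and its E4.5 libraries still held 447, 565 and 96 counts. The means of 22.6 ± 7.46 and 0.364 ± 0.242 FPKM (SD, n = 3 each) gave a log2 fold change of 5.95 (SE 0.74, edgeR adjusted p = 0.0259). The log2 fold changes without E4.5 replicate 3 were 3.94 for Muc1 and 5.49 for Muc4.

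Pigr (chromosome 1, 130826684 to 130852249, plus strand) had 88.4, 101 and 124 FPKM at E0.5 but 14.4, 18.7 and 0.766 FPKM at E4.5. All E0.5 libraries lay above all E4.5 libraries, but replicate 3 was far below its own group. The means were 105 ± 18.1 and 11.3 ± 9.38 FPKM (SD, n = 3 each), a log2 fold change of 3.21 with SE 1.0. This met the study's criterion, but not the adjusted p (0.176 in edgeR's test). Leaving out that library gave a log2 fold change of 2.65 and an edgeR adjusted p = 0.00204.

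Lyz2 was the exception. Its row (chromosome 10, 117277331 to 117292849, minus strand) merges Lyz2 with Lyz1 in the table of this stage, so its level is that of the 2 lysozyme genes together. It had 40.0, 31.7 and 37.5 FPKM at E0.5 but 31.7, 17.8 and 18.4 FPKM at E4.5. The groups touched without overlapping, since the lowest E0.5 library and the highest E4.5 library both rounded to 31.7 FPKM. The log2 fold change of 0.68 (SE 0.29, edgeR adjusted p = 0.298) did not meet the criterion, nor did that of 0.52 without E4.5 replicate 3. Without E4.5 replicate 1, the highest of its group, the value was 1.05 and met the criterion (edgeR adjusted p = 0.133). The groups of all 6 genes were without overlap, as were those of 12.8% of all rows in this direction.

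**Figure D1:**
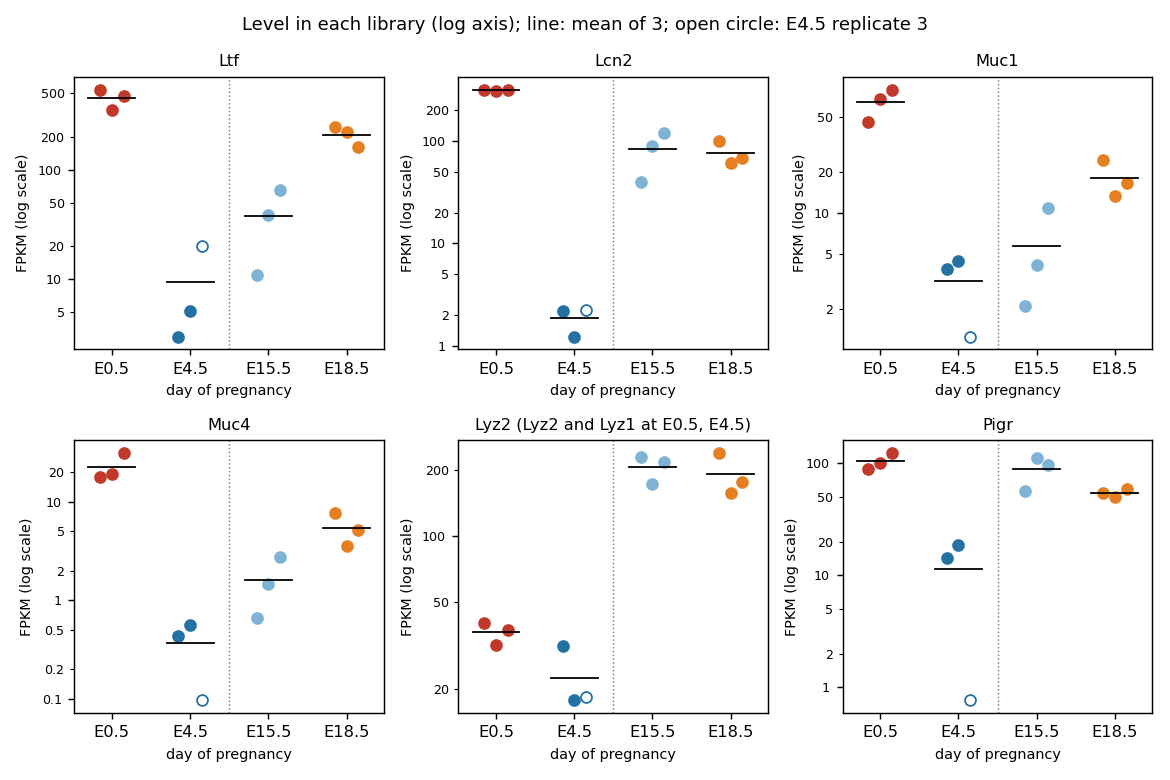
FPKM of each gene (vertical axis, log scale) in each of the 12 libraries by day of pregnancy (horizontal axis), with a line at the mean of 3 libraries and an open circle for E4.5 replicate 3. The dotted line separates the 2 tables, which were normalized separately. Ltf, Lcn2, Muc1, Muc4 and Pigr drop from E0.5 to E4.5, while only Ltf, Muc1 and Muc4 separate E18.5 from E15.5.

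Between E18.5 and E15.5, 3 of the 6 genes met the study's criterion, Ltf, Muc1 and Muc4, all higher at E18.5, where 3.11% of all 30928 tested rows met it in that direction. None of the 6 reached an adjusted p under 0.05 in limma's test on log2(FPKM + 0.1) with Benjamini-Hochberg adjustment, while 0.0194% of all rows passed it upwards. At an unadjusted p under 0.05 there were 4 of the 6 (Ltf, Muc1, Muc4 and Pigr), against 12.2% of all rows in either direction. The median log2 fold change was 0.90 over the 6 genes and 0.02 over all rows. The fit without E15.5 replicate 1 again had Ltf, Muc1 and Muc4 at the criterion, where 2.44% of all rows were higher and 2.57% lower by it, and the median of the 6 was 0.64.

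Ltf had 247, 218 and 161 FPKM at E18.5 and 11, 38.2 and 64.5 FPKM at E15.5. The E18.5 libraries all lay above the E15.5 libraries. Relative to their mean, the E15.5 libraries differed among themselves more than the E18.5 libraries did, though less in FPKM. From means of 209 ± 43.6 and 37.9 ± 26.8 FPKM (SD, n = 3 each), the log2 fold change was 2.77 (SE 0.60, limma adjusted p = 0.167). It was 2.05 without E15.5 replicate 1, which held the lowest value.

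The mucins again moved together. Muc1 had 24.2, 13.4 and 16.6 FPKM at E18.5 and 2.10, 4.17 and 10.8 FPKM at E15.5, and its log2 fold change was 1.91 (SE 0.56, limma adjusted p = 0.251). Muc4 had 7.68, 3.53 and 5.09 FPKM at E18.5 and 0.664, 1.45 and 2.74 FPKM at E15.5, with a log2 fold change of 1.82 (SE 0.50, limma adjusted p = 0.233). The days did not overlap for either mucin, and both had their lowest value in E15.5 replicate 1, without which the log2 fold changes were 1.37 for Muc1 and 1.33 for Muc4. The groups of Ltf, Muc1 and Muc4 were without overlap upwards, as were those of 10.9% of all rows.

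Lcn2 had 101, 60.7 and 68.1 FPKM at E18.5 and 40.0, 89.8 and 121 FPKM at E15.5, so the days overlapped. Its log2 fold change was -0.02 with an interval of 2 standard errors from -0.86 to 0.82 (limma adjusted p = 0.990), and it was -0.48 without E15.5 replicate 1. Its log2 fold change at the implantation stage, 7.38 from edgeR on counts, lies outside that limma interval. The difference itself was tested in a separate fit given below.

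Pigr had 54.1, 50.0 and 59.6 FPKM at E18.5 and 57.0, 112 and 95.8 FPKM at E15.5. Its unadjusted p was 0.0427 in limma's test, the log2 fold change of -0.64 was below the size the criterion asks for, and the adjusted p was 0.393. The days overlapped through E15.5 replicate 1, and the log2 fold change without that library was -0.92 (limma adjusted p = 0.134).

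Lyz2, which has a row of its own in this table, had 239, 158 and 176 FPKM at E18.5 and 228, 173 and 218 FPKM at E15.5. The overlapping groups gave a log2 fold change of -0.12 with an interval of 2 standard errors from -0.57 to 0.33 (limma adjusted p = 0.853), and without E15.5 replicate 1 it was -0.04. Lyz1 was measured separately and was low, at 2.33, 1.75 and 2.12 FPKM at E18.5 and 0.960, 1.11 and 1.45 FPKM at E15.5, so nearly all lysozyme RNA of the labor stage was assigned to Lyz2. Reads shared by these paralogs may be split between them, and the split is uncertain.

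**Figure D2:**
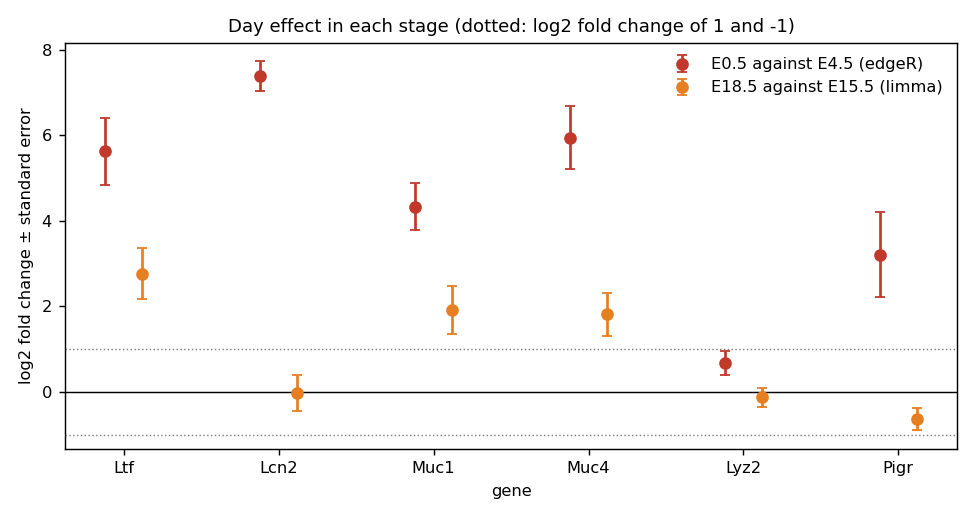
Log2 fold change with its standard error (vertical axis) of each gene (horizontal axis) for E0.5 against E4.5 and for E18.5 against E15.5, with dotted lines at 1 and -1. Lcn2 has the largest value of the 6 at the implantation stage, 7.38, and one near 0 at the labor stage, -0.02.

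The question whether the day effect itself differed between the stages was put to limma over all 12 libraries, taking the log2 fold change of E0.5 against E4.5 less that of E18.5 against E15.5, for 26597 row pairs matched by Ensembl transcript. Both effects are limma's here, on log2(FPKM + 0.1), and at the implantation stage they differ from edgeR's, with 4.07 for Pigr, 6.01 for Ltf, 7.36 for Lcn2, 5.74 for Muc4, 4.44 for Muc1 and 0.73 for Lyz2. The effect was larger at the implantation stage for Lcn2, by 7.38 (SE 0.53, adjusted p = 9.79e-05), and for Muc4, by 3.92 (SE 0.76, adjusted p = 0.0244). These are 2 of 6 genes, where 1.27% of all pairs passed in that direction. The difference was 4.71 for Pigr (adjusted p = 0.0732), 3.24 for Ltf (adjusted p = 0.109), 2.53 for Muc1 (adjusted p = 0.128) and 0.85 for Lyz2 (adjusted p = 0.241), none of which passed. For Lyz2 it sets the row merged with Lyz1 at the implantation stage against the row of Lyz2 alone at the labor stage. Without E4.5 replicate 3 the difference also passed for Ltf (4.02, adjusted p = 0.0189) and Pigr (3.29, adjusted p = 0.00138), giving 4 of 6, against 2.38% of all pairs. Muc4 passed in 8 of the 12 fits that left out a library, with an adjusted p of up to 0.0684, and Lcn2 in all 12.

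The order of the genes by level changed from day to day. At E0.5 the order by mean FPKM was Ltf, Lcn2, Pigr, Muc1, Lyz2 and Muc4, and no neighbours overlapped in their range over libraries. At E4.5 it was Lyz2, Pigr, Ltf, Muc1, Lcn2 and Muc4, and only Lcn2 and Muc4 differed beyond the spread of their libraries. At E15.5 it was Lyz2, Pigr, Lcn2, Ltf, Muc1 and Muc4, where Lyz2 stood clear of Pigr and Ltf clear of Muc1 while the other neighbours overlapped. At E18.5 it was Ltf, Lyz2, Lcn2, Pigr, Muc1 and Muc4, where only Ltf and Lyz2 overlapped, at 209 and 191 FPKM.

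The markers of cell types moved too. The summed FPKM of 8 epithelium markers (Epcam, Cdh1, 4 keratins and 2 claudins) was 256 to 318 at E0.5 against 95.2 to 224 at E4.5, and 675 to 939 at E18.5 against 210 to 471 at E15.5, without overlap in either stage. Of these 8 markers, 3 met the criterion at E0.5 (2 without E4.5 replicate 3) and 5 at E18.5 (4 without E15.5 replicate 1), all higher. At the implantation stage 6 log2 fold changes lay above 0 and 2 below (Cldn3 -0.03, Cldn4 -0.09). Without E4.5 replicate 3 the criterion was met by Krt8 (1.83) and Krt19 (2.44), while Cldn3 had -0.40 and Cldn4 -0.46. The markers therefore did not move alike at that stage. E15.5 replicate 1, which had the lowest Ltf, Lcn2, Muc1, Muc4 and Pigr of its group, also had the lowest epithelium sum, 210 FPKM. The 9 macrophage markers summed to 89.5 to 123 FPKM at E0.5 against 52.6 to 56.0 at E4.5, and to 226 to 303 FPKM at E18.5 against 213 to 259 at E15.5.

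Neutrophils store lactoferrin and lipocalin 2 in their granules, so their markers were set beside these genes. The 10 neutrophil markers summed to 1.2 to 3.37 FPKM at E0.5 but 1.14 to 2.12 FPKM at E4.5, and S100a9 and Retnlg had no count in any of these 6 libraries. Of 4 neutrophil markers that could be tested, 2 met the criterion, both higher at E0.5, and none passed the adjusted p of edgeR (unadjusted p under 0.05 in 2, and 1 past the adjusted p of DESeq2). Ly6g, a surface protein of neutrophils, had 0.599, 0.715 and 1.92 FPKM at E0.5 but 0.0218, 0.0667 and 0.281 FPKM at E4.5. Its log2 fold change was 3.05, and that of Csf3r, the receptor for granulocyte colony-stimulating factor, was 1.88. The other testable markers, S100a8 (-2.0) and Camp (-2.19), had values below 0 and did not meet the criterion, and the median of the 4 was -0.06. The chemokine receptor Cxcr2, too low to be tested, had 5, 64 and 12 counts at E0.5 and none at E4.5. Ly6g alone met the criterion without E4.5 replicate 3. In the same E0.5 libraries Ltf and Lcn2 stood between 308 and 537 FPKM. At the labor stage the 8 neutrophil markers with a row summed to 2.07 to 6.36 FPKM, apart from E15.5 replicate 1 with 28.0 FPKM, where Ltf and Lcn2 were at their lowest for that stage. There 1 of 5 testable markers, Cxcr2, met the criterion, higher at E18.5 with a log2 fold change of 2.61. S100a8 had -2.71 without meeting it, and the median of the 5 was -0.13, or 0.26 without E15.5 replicate 1. The part of neutrophils in the values of Ltf and Lcn2 was not tested. The summed markers of placenta and yolk sac ranged from 35.8 to 666 FPKM at E15.5 and from 129 to 525 FPKM at E18.5. Of 7 tested ones, 2 met the criterion, both higher at E18.5, as did 3.11% of all rows. The median log2 fold change of the 7 was 1.48, or 0.26 without E15.5 replicate 1, with 5 above 0 and 2 below over all libraries. Tpbpa had 4.02, and 4.67 without that library (limma adjusted p = 0.00679). The part of these tissues in the labor stage values was not tested.

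**Figure D3:**
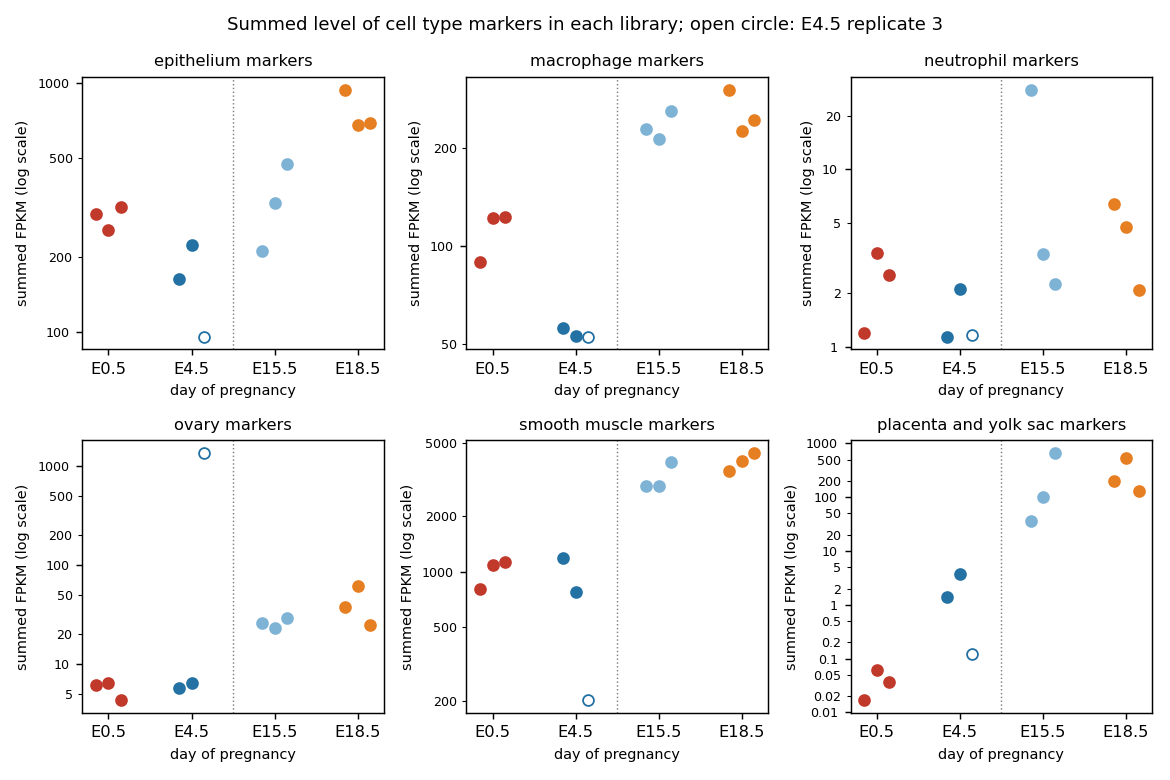
Summed FPKM (vertical axis, log scale) of the markers of 6 cell types or tissues in each library by day of pregnancy (horizontal axis), with an open circle for E4.5 replicate 3. The epithelium sum is higher at E0.5 than at E4.5 and higher at E18.5 than at E15.5, and the ovary sum of E4.5 replicate 3 is 1357 FPKM.

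Divided by the epithelium sum of the same library, a measure added after the data had been seen, Ltf, Lcn2, Muc1, Muc4 and Pigr were still higher at E0.5 than at E4.5 without overlap, as were 3.44% of all rows. The mean ratio was 77.4 times higher for Lcn2, 37.4 for Muc4, 18.4 for Ltf, 11.8 for Muc1 and 6.01 for Pigr. Leaving out E4.5 replicate 3, it was 115 times higher for Lcn2, 74.6 for Ltf, 29.8 for Muc4, 10.2 for Muc1 and 4.19 for Pigr, so that Ltf then stood above Muc4. In limma's test on this scale all 5 had an adjusted p under 0.05, against 0.34% of all rows upwards, and again without E4.5 replicate 3, against 0.919%. Lyz2 overlapped on this scale, with a log2 fold change of -0.21 (limma adjusted p = 0.739), or 0.0037 without that library (adjusted p = 0.995). The division lowered all rows, to a median log2 fold change of -0.95, so the sign of the Lyz2 value is not a result about Lyz2.

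At the labor stage the same division left only Ltf higher at E18.5 without overlap, by 2.69 times, as were 0.821% of all rows. Its log2 fold change was 1.52 on this scale (limma adjusted p = 0.0245), where 0.336% of all rows passed upwards. Without E15.5 replicate 1 the ratio was 2.16 times higher and the log2 fold change 1.10 (limma adjusted p = 0.0179), against 0.459% of all rows. Muc1 (log2 fold change 0.67) and Muc4 (0.57) overlapped between the days and no longer met the criterion. On this scale 1 gene, Ltf, met it upwards, where 0.427% of all rows did, and 3 met it downwards, where 63.6% of all rows did. Those 3, Lcn2, Lyz2 and Pigr, were lower without overlap, but so were 67.9% of all rows, since the division moved the median log2 fold change of all rows to -1.22.

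**Figure D4:**
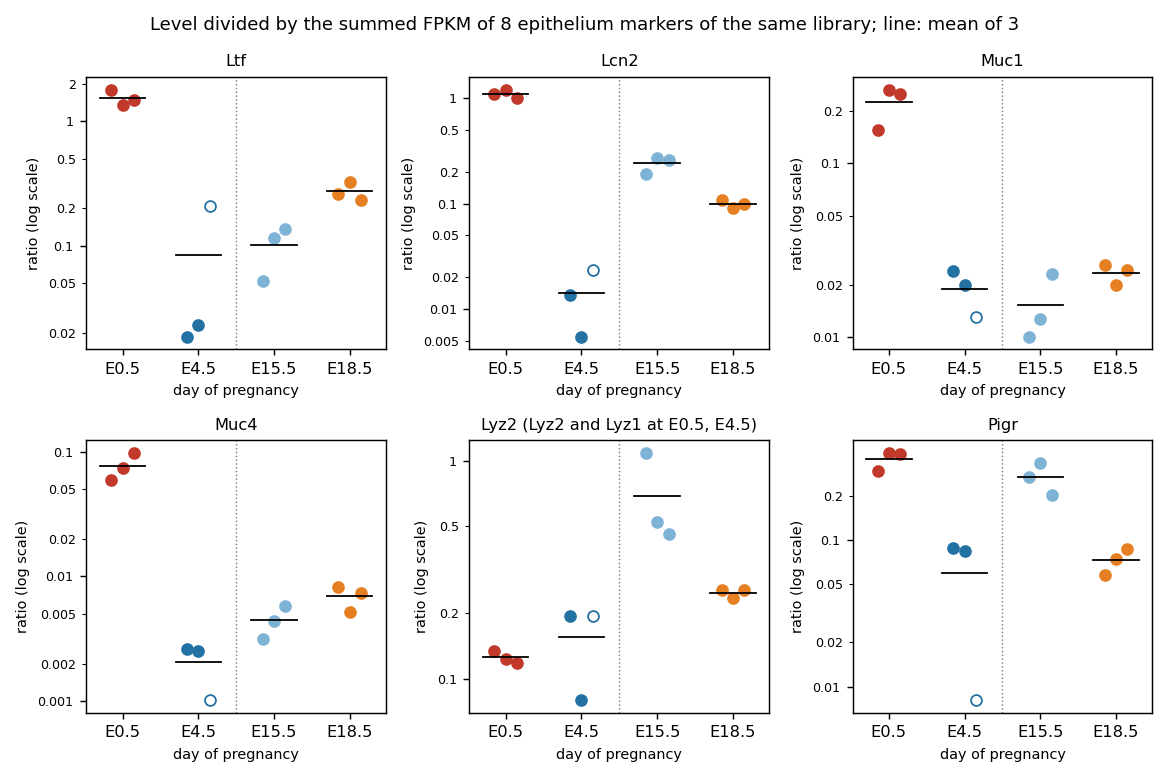
FPKM of each gene divided by the summed FPKM of 8 epithelium markers of the same library (vertical axis, log scale) by day of pregnancy (horizontal axis), with a line at the mean of 3 and an open circle for E4.5 replicate 3. Ltf keeps its higher level at E18.5, while the points of Muc1 and Muc4 overlap between E15.5 and E18.5.

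The Lyz2 values were set beside the macrophage markers. Divided by the macrophage sum, the Lyz2 row had ratios of 0.259 to 0.447 at E0.5 and 0.337 to 0.565 at E4.5, which overlapped (0.350 in E4.5 replicate 3). Its ratio was 0.697 to 0.791 at E18.5 and 0.810 to 1.0 at E15.5, lower at E18.5 without overlap, as were 9.82% of all rows. The log2 fold change of -0.26 on this scale did not pass limma's test (unadjusted p = 0.268).

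For the gene lists that follow, the shares of all rows that met the criterion were 6.37% higher and 5.82% lower at E0.5, and 3.11% higher and 2.93% lower at E18.5. The adjusted p of edgeR was passed by 0.763% upwards and 0.459% downwards, that of DESeq2 by 9.74% in either direction, and an unadjusted p under 0.05 in edgeR by 17%. Without E4.5 replicate 3, 7.82% were higher and 6.31% lower by the criterion, and 3% and 3.07% by the adjusted p. The labor counts of these lists did not change without E15.5 replicate 1, except that the O-glycan enzyme St6galnac2 (0.85) no longer met the criterion and Jchain, the joining chain of secreted immunoglobulins, met it (-1.43).

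Other mucins were low but several moved in the same direction at implantation. Of 7 that could be tested, 4 were higher at E0.5 by the criterion and none lower, with Muc5b (log2 fold change 3.19) also past the adjusted p. Muc5ac, Muc5b and Muc13 passed the filter of 0.1 FPKM only through E0.5, with means of 0.013, 0.054 and 0.058 FPKM at E4.5. The number higher and the median of this list therefore depend on that filter. The same held for St6galnac1 and Lpo, counted as higher in the lists below. Muc20, a transmembrane mucin and the most abundant of them, had 4.15 ± 1.96 FPKM at E0.5 but 0.363 ± 0.221 FPKM at E4.5 (SD, n = 3 each), a log2 fold change of 3.51 (edgeR adjusted p = 0.0602). The median log2 fold change was 3.19. Without E4.5 replicate 3 the median was 3.01, 5 of the 7 met the criterion and 2 the adjusted p, now with Muc20. At the labor stage 0 of 3 testable mucins met the criterion, and 0 had an unadjusted p under 0.05 in limma's test.

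Of 16 enzymes that build mucin O-glycans, 3 were higher and 1 was lower at E0.5, with a median log2 fold change of 0.21. Galnt6 (log2 fold change 2.48, adjusted p = 0.0445 in edgeR's test) and Galnt12 (2.09, adjusted p = 0.0368, in a row that also holds Gm12424), which attach the first sugar, passed the adjusted p. Galnt1, the most abundant, had a log2 fold change of 0.09. The counts were again 3 and 1 without E4.5 replicate 3, the median was 0.38, and 2 higher and 1 lower gene passed the adjusted p. Late in pregnancy 1 of 14 met the criterion, the sialyltransferase St6galnac2, with a log2 fold change of 1.08.

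Of 11 genes listed as other secreted antimicrobial proteins, 4 were higher and 1 lower at E0.5, with a median log2 fold change of 0.80. The row that merges Lyz1 with Lyz2 was not counted, and the list also holds proteins of other function, such as Agr2 and Clu. Pglyrp1, a peptidoglycan recognition protein, had 38.6 ± 8.30 FPKM at E0.5 but 2.0 ± 0.395 FPKM at E4.5 (SD, n = 3 each), a log2 fold change of 4.28 (edgeR adjusted p = 0.00508). Chil1, a chitinase-like protein, had a log2 fold change of 3.82 and met the criterion only. Agr2, a disulfide isomerase needed for mucin folding, was lower at E0.5 by the criterion, with -1.43. Without E4.5 replicate 3 the median was 1.47, 5 were higher and 1 lower, and 3 higher ones, Chil1 among them, and Agr2 passed the adjusted p. Late in pregnancy 2 of 11 were higher at E18.5 than at E15.5, Clu (2.18) and Wfdc2 (1.67), and Pglyrp1 was lower (-1.22), none past the adjusted p.

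Of 8 genes for iron handling or for receptors of Ltf and Lcn2, 1 was higher and 4 were lower at E0.5, none past the adjusted p of edgeR (unadjusted p under 0.05 in 5, and 4 past the adjusted p of DESeq2). The iron exporter Slc40a1 was the higher one (log2 fold change 3.68). Lrp2, the endocytic receptor megalin, which takes up Lcn2, was lower (-2.94), as were the ferroxidase Heph (-1.29) and the transferrin receptor Tfrc (-1.12). With E4.5 replicate 3 left out, 2 were higher and 2 lower, and the median moved from -0.58 to -0.09. Slc40a1 (4.88), Lrp2 (-3.26) and Tfrc (-1.38) then passed the adjusted p, while Heph (-0.43) no longer met the criterion. None of the 8 met the criterion at the labor stage.

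Pigr carries immunoglobulins made by plasma cells, and of 7 genes of immunoglobulin and plasma cells 1 was higher (Ighm, 1.07) and 2 were lower (Mzb1 -1.32, Xbp1 -1.09) at E0.5, none past the adjusted p of edgeR (unadjusted p under 0.05 in 3, and 1 past the adjusted p of DESeq2). The Mzb1 row also holds Gm50318 and Spata24, so its value is not that of Mzb1 alone. In the fit without E4.5 replicate 3, Ighm (0.80) no longer met the criterion, Xbp1 (-1.43) passed the adjusted p, and the median moved from 0.16 to 0.80. None of the 7 met the criterion between E18.5 and E15.5, the most abundant being Igkc.

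Among 10 other estrogen-regulated uterine genes, 4 were higher and 1 lower at E0.5, with a median log2 fold change of 0.02. Complement C3 had 660 ± 71.5 FPKM at E0.5 but 41.1 ± 5.25 FPKM at E4.5 (SD, n = 3 each), a log2 fold change of 4.01 (edgeR adjusted p = 0.00508). The arginine deiminase Padi1 (3.72) and the fucosyltransferase Fut2 (3.22) were also higher, Fut2 past the adjusted p. The growth factor Igf1 was lower, with -2.28 (edgeR adjusted p = 0.0461). Without E4.5 replicate 3 the median was 1.01, and 5 were higher and 1 lower, all 6 past the adjusted p. The one gained was Inhbb, with -0.67 over all libraries and 1.70 without that library. Between E18.5 and E15.5, Padi1 (2.17) and Inhbb (1.99) were higher and Padi2 (-1.70) was lower by the criterion, and C3 had a log2 fold change of 0.46.

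**Figure D5:**
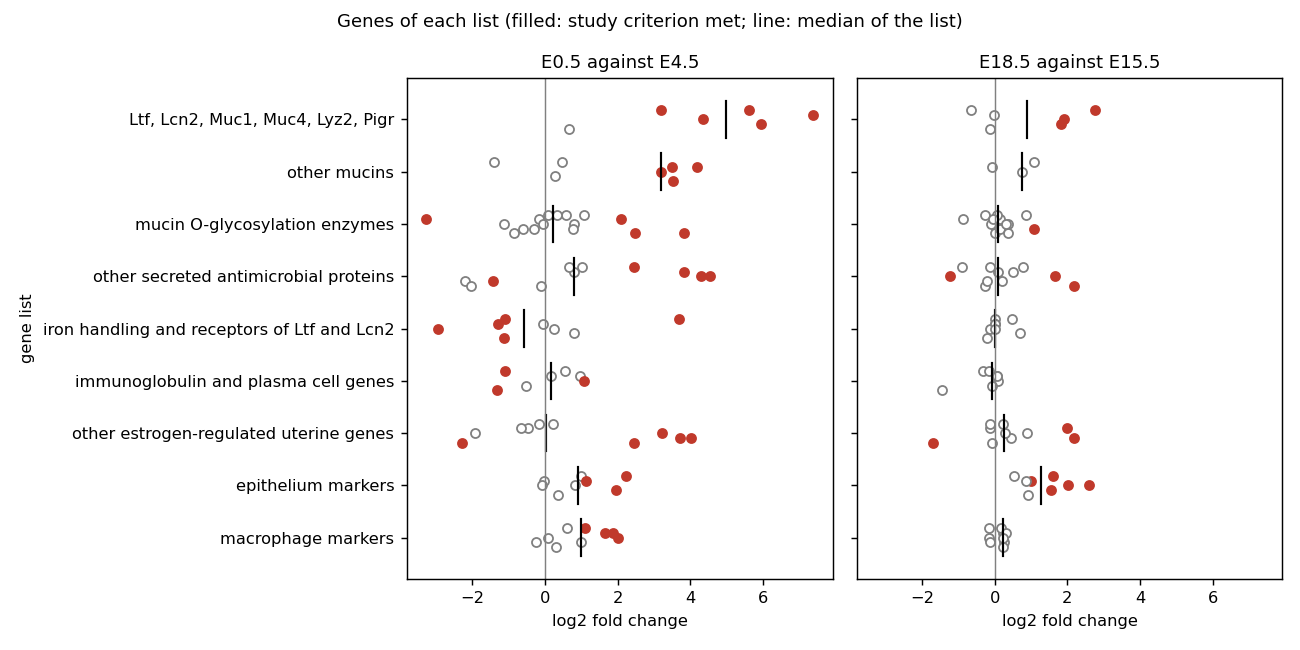
Log2 fold change (horizontal axis) of the tested genes of each list (vertical axis) for E0.5 against E4.5 and E18.5 against E15.5, filled where the study's criterion was met, with a line at the median of the list. The median of Ltf, Lcn2, Muc1, Muc4, Lyz2 and Pigr is 4.98 for E0.5 against E4.5 and 0.90 for E18.5 against E15.5.

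The genes also differed in how their libraries varied. As a description over the 12 libraries, each centred on its stage mean of log2(FPKM + 0.1), Muc1 and Muc4 had a Pearson r of 0.99, and Muc4 was the closest of 10851 protein-coding rows to Muc1. Cd24a and Fbln2 came next for Muc1, and Tjp3 was closest to Muc4. Ltf was most like Cacnb3, Plet1 and Hgfac, and Lcn2 most like Alpl, a row holding Itgam, and Cnp, all at 0.97 to 0.99. Pigr was most like Stat3 (0.99), Adgrf1 and Bspry, and the last of these dropped from 0.97 to 0.86 without E4.5 replicate 3. Lyz2 was most like Rrad (0.91), Cap1 and Sat1. Between Ltf and Lyz2 r was 0.48, the lowest of the 15 pairs among the 6 genes. Levels were centred on the stage and not on the day, so the day effect is contained in these values, and its part was not tested.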

How the data were processed

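The authors sequenced RNA from 12 uteri, assembled transcripts with StringTie and deposited 1 gene table per stage. The labels give uterus as the source but an adipose type in the extraction text, and poly(A) selection where the study's methods name ribosomal RNA removal. The deposited FPKM values of both stages, and the whole-number counts deposited for the implantation stage only, were used. Per the study's methods, the authors mapped reads with Bowtie and TopHat and estimated FPKM with StringTie and Ballgown. HISAT2 2.0 is also named among the upstream tools, so which mapper gave the deposited values is not settled. How the counts were made and whether strand was used is not given in the sources used here. At the implantation stage the placeholder 0.0001 FPKM was set to 0 where the count was 0. Positions are those of the table, and all 6 genes overlap their RefSeq entry in GRCm38.p6.

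Tests covered rows whose mean was 0.1 FPKM or more, with edgeR 4.0.16 (TMM, quasi-likelihood) on counts, and with limma 3.58.1 (trend) on log2(FPKM + 0.1) for the labor stage and for the difference between stages. Adjusted p-values are Benjamini-Hochberg over all tested rows. The standard error of edgeR's log2 fold change is its size over the root of F. The tests were tried on simulated data with the same spread for all rows and no library set apart. These runs therefore do not cover a library like E4.5 replicate 3. DESeq2 1.42.0, other scalings, pseudocounts and filters, a block for the replicate number and fits without each library were the alternatives.

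The genes and lists were chosen with earlier results of these data known. Named list genes are at most 3 per direction and stage by log2 fold change, with a mean of at least 1 FPKM and the criterion met, plus the most abundant. Muc5b, S100a9, Retnlg, Csf3r, Cxcr2, Camp, S100a8 at implantation, Jchain and Lyz1 fall outside this rule and were chosen after their values were seen.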

Additional observations from a re-analysis of the deposited data

Results flagged for a closer look

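The day effect of Lcn2 was larger at the implantation stage than at the labor stage by 7.38 on the log2 scale (limma, adjusted p = 9.79e-05), and that of Muc4 by 3.92 (adjusted p = 0.0244). Both were singled out because the difference of the effects itself passed the test.

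Outside the comparisons, 3 rows of the implantation stage carry the name of Ltf or Muc4 without an Ensembl transcript, and they were singled out because they hold signal. The row named after Ltf lies on chromosome 9 from 111042916 to 111046813, on the same strand and 149 bases past the end of the Ltf row. Its mean was 14.2 FPKM at E0.5, with a log2 fold change of 5.06 against E4.5 (edgeR adjusted p = 0.0758). The rows named after Muc4 lie within Muc4 on chromosome 16, on the other strand. The one from 32741372 to 32743997 had a mean of 3.41 FPKM at E0.5 and a log2 fold change of 5.62 (edgeR adjusted p = 0.0276). The one from 32751543 to 32755906 had a mean of 3.88 FPKM at E0.5 and a log2 fold change of 4.68 (edgeR adjusted p = 0.0963). Whether strand was used in counting is not given in the sources used here, and without it reads of these rows and of Muc4 cannot be told apart.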

How the results depend on the processing

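At the implantation stage, 5 genes met the study's criterion in all alternatives but the fit without E4.5 replicate 1, where Lyz2 made it 6 (log2 fold change 1.05). The number past the adjusted p, 4, was 5 with DESeq2 and ranged from 0 to 5 when a library was left out. It was 0 without E0.5 replicate 2, 1 (Lcn2) without E0.5 replicate 1 or 3 or E4.5 replicate 1 or 2, and 5 without E4.5 replicate 3. With the replicate block it was 0, with Lcn2 at an adjusted p of 0.0590. The replicate numbers do not pair the mice in any source, and the deviations of same-numbered libraries had correlations of -0.06 to 0.02. Relative to the epithelium or macrophage markers, Lyz2 turned to -0.21 or -0.31, where the median of all rows was -0.95 or -1.05, so that the scaling itself sets the sign. With limma on log2(FPKM + 1), Muc4 fell from 5.95 to 4.08, and its difference between stages from 3.92 to 2.76 with a pseudocount of 1.

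At the labor stage, 3 genes met the criterion and 0 passed the adjusted p under all other scalings, pseudocounts, filters and omitted libraries. Relative to the epithelium markers, 1 was higher and 3 were lower by the criterion, with 4 past the adjusted p. The scaling itself lowers all rows. By the criterion 0.427% of all rows were higher and 63.6% lower, and by the adjusted p 0.336% and 56.6%. Without E15.5 replicate 1 the counts were 1, 2 and 4, against 0.627% higher and 32.4% lower by the criterion. The adjusted p was then passed by 0.459% upwards and 36.9% downwards. Lcn2 turned to 0.088 and Lyz2 to 0.013 with quantile normalization, and with a library left out they ranged from -0.48 to 0.32 and from -0.30 to 0.0045, Ltf from 2.05 to 3.32, Muc1 from 1.37 to 2.52, and Muc4 from 1.33 to 2.28. The count of 2 differences between stages was 1 with the replicate block and 1 to 4 with a library left out. Muc4 lost the call without E0.5 replicate 3, E15.5 replicate 2, E18.5 replicate 2 or E18.5 replicate 3, and the cause was not tested. Ltf gained it without E15.5 replicate 1 (adjusted p = 0.0422), and Pigr without E4.5 replicate 2 (0.0391) or with a pseudocount of 1 (0.0446), all in limma. With 3 mice a group, E4.5 replicate 3 and E15.5 replicate 1 apart and unknown depth at the labor stage, small differences would not be seen.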
